A study of Mus musculus with 9 samples.

Results

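The antigen presentation genes described here were 9 genes of major histocompatibility complex (MHC) class I and class II presentation, together with the complement gene C4b. They were chosen by symbol, from a list drawn up with earlier results of these data known, and all 10 listed genes were among the 11315 genes measured: the class I heavy chains H2-K1, H2-D1 and H2-T10, their light chain B2m, the peptide transporter subunits Tap1 and Tap2, the class II chains H2-Aa and H2-Ab1, the invariant chain Cd74, and C4b. RNA was sequenced from GFP-positive cells sorted from the brains of C57BL/6 mice at postnatal day 60, in 3 groups of 3 libraries. PDGFRa-GFP cells were labelled as oligodendrocyte progenitors, PLP-GFP cells as pre-myelinating oligodendrocytes and NDRG1-eGFP cells as myelinating oligodendrocytes, each named for the gene behind its fluorescent reporter. The labels do not say how the reporters were built, nor whether the 3 libraries of a group came from separate animals, and each p-value therefore reflects library-to-library spread, which may be technical. All values are the authors' normalized values on a log2 scale.

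Class I molecules carry peptides from the cytosol to the cell surface, where CD8+ T cells read them. The peptides are cut by the proteasome, pumped into the endoplasmic reticulum by the TAP transporter and bound by a heavy chain paired with beta-2-microglobulin. Class II molecules carry peptides from endosomes and are read by CD4+ T cells; in the healthy brain they are best known from macrophages and dendritic cells of the borders, and Cd74 escorts them to the endosome. C4b is the mouse gene for complement component C4, which is cleaved after C1q binds a surface. Oligodendroglia are usually low in presentation genes and are known to express several of them, and C4b, in inflamed or ageing tissue.

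The 15 oligodendrocyte markers, summed on the linear scale, stood between 22.56 and 22.77 (log2) in PDGFRa-GFP libraries, between 22.70 and 22.73 in PLP-GFP libraries and between 22.82 and 22.88 in NDRG1-eGFP libraries. The 11 measured progenitor markers stood between 16.89 and 17.18, between 16.70 and 16.80, and between 16.90 and 17.07 in the same groups. That sum was led by Olig1, whose means were 16.77, 16.46 and 16.85 in the same order. The median log2 fold change of the 11 against PDGFRa-GFP cells was -0.68 in PLP-GFP and -0.93 in NDRG1-eGFP cells. For all genes it was 0.03 and 0.14. By the sum of the oligodendrocyte markers, the PDGFRa-GFP libraries held mature oligodendrocyte transcripts at nearly the level of the other groups. This goes against their label, and the groups are called by their reporters. Correlations between libraries of a group over all genes lay between 0.931 and 0.982 for PDGFRa-GFP, where replicate 3 stood lowest, between 0.975 and 0.985 for PLP-GFP and between 0.939 and 0.964 for NDRG1-eGFP.

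Of the 10 genes, 6 (H2-K1, H2-D1, B2m, H2-Aa, Cd74 and C4b) had their lowest mean in PLP-GFP cells. In NDRG1-eGFP against PLP-GFP cells, 7 of the 10 genes were higher, none was lower, and 3 (Tap1, Tap2 and C4b) did not pass limma's moderated test at a Benjamini-Hochberg adjusted p under 0.05 over all genes. In that comparison 48.3% of all genes tested were called in either direction, 26.1% higher and 22.2% lower. In PLP-GFP against PDGFRa-GFP cells, H2-T10 was higher and H2-D1 and C4b were lower, with 17.0% of all genes called, 8.46% higher and 8.53% lower. In NDRG1-eGFP against PDGFRa-GFP cells, H2-T10, H2-Ab1 and Cd74 were higher and C4b was lower, with 21.1% of all genes called, 10.7% higher and 10.4% lower. The median log2 fold change of the 10 genes was 0.92, -0.68 and 0.23 in these comparisons, against 0.08, 0.03 and 0.14 for all genes. Each group enters 2 of the 3 comparisons, so these counts share libraries.

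The ranges of the groups did not overlap for 6 of the 10 genes in NDRG1-eGFP against PLP-GFP cells, where 66.4% of all genes did not overlap. The same held for 6 genes in PLP-GFP against PDGFRa-GFP cells, beside 42.3% of all genes, and for 5 genes in NDRG1-eGFP against PDGFRa-GFP cells, beside 35.3%. Within groups the genes also moved by library: PLP-GFP replicate 1 was the highest of its group for 6 of the 10 genes (H2-K1, H2-D1, B2m, H2-Aa, H2-Ab1 and Cd74), and NDRG1-eGFP replicate 1 for 5 of them.

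**Figure D1:**
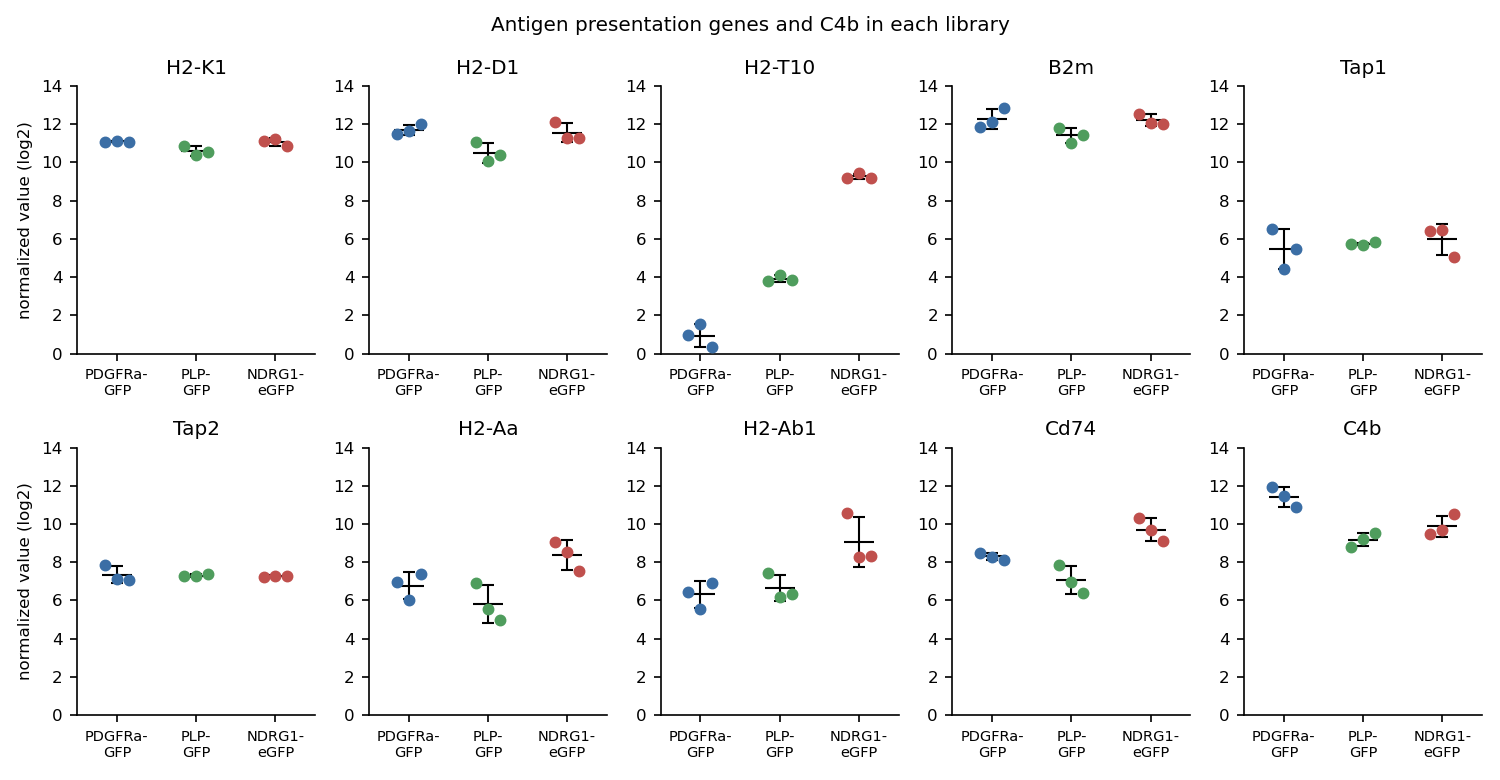
Normalized value (log2) of each of the 10 genes in every library, with points for the libraries in replicate order and bars for the group mean ± SD (n = 3). H2-T10 separates the 3 groups, the class II chains and Cd74 stand highest in NDRG1-eGFP cells, and C4b stands highest in PDGFRa-GFP cells.

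The classical class I heavy chains H2-K1 and H2-D1 and the light chain B2m each had their lowest mean in PLP-GFP cells, and all were called higher in NDRG1-eGFP cells against them. H2-K1 (chr17:33996017-34000347, minus strand, GRCm38) encodes a heavy chain that presents peptides to CD8+ T cells. Its values were 11.06, 11.15 and 11.09 in PDGFRa-GFP libraries, 10.87, 10.39 and 10.53 in PLP-GFP libraries and 11.12, 11.23 and 10.85 in NDRG1-eGFP libraries. All PLP-GFP libraries lay below all PDGFRa-GFP libraries, while NDRG1-eGFP replicate 3 lay just under PLP-GFP replicate 1. H2-K1 was higher in NDRG1-eGFP cells than in PLP-GFP cells by a log2 fold change of 0.47 ± 0.16 (SE; limma adjusted p = 0.0337), and PLP-GFP against PDGFRa-GFP cells gave -0.50 ± 0.16 (limma adjusted p = 0.0561). In bulk sorted cells, fewer cells of a type and less RNA per cell cannot be told apart.

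H2-D1 (chr17:35262730-35267499, plus strand) encodes the other classical heavy chain measured. Its values were 11.48, 11.62 and 12.01 in PDGFRa-GFP libraries, 11.08, 10.05 and 10.41 in PLP-GFP libraries and 12.12, 11.26 and 11.29 in NDRG1-eGFP libraries. The PLP-GFP libraries were the lowest 3 of the 9, with no overlap with either other group. H2-D1 was higher in NDRG1-eGFP cells than in PLP-GFP cells by 1.04 ± 0.30 (limma adjusted p = 0.0151) and lower in PLP-GFP cells than in PDGFRa-GFP cells, at -1.19 ± 0.30 (limma adjusted p = 0.0261). NDRG1-eGFP against PDGFRa-GFP cells gave -0.15 ± 0.30 (limma adjusted p = 0.75).

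B2m (chr2:122147686-122153083, plus strand) encodes beta-2-microglobulin, the light chain of every class I molecule. Its values were 11.86, 12.12 and 12.87 in PDGFRa-GFP libraries, 11.79, 11.03 and 11.43 in PLP-GFP libraries and 12.55, 12.07 and 12.01 in NDRG1-eGFP libraries. PLP-GFP cells were again the lowest with no overlap, by a margin of less than 0.1 between PDGFRa-GFP replicate 1 and PLP-GFP replicate 1. B2m was higher in NDRG1-eGFP cells than in PLP-GFP cells by 0.79 ± 0.27 (limma adjusted p = 0.0351), and PLP-GFP against PDGFRa-GFP cells gave -0.87 ± 0.27 (limma adjusted p = 0.0541).

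The calls of these class I genes in NDRG1-eGFP against PLP-GFP cells changed when single libraries were left out, when the values were recentred and when the trend on gene length was removed. Without PLP-GFP replicate 2 the log2 fold changes of H2-D1, H2-K1 and B2m were 0.81, 0.37 and 0.60, without PLP-GFP replicate 3 they were 0.99, 0.44 and 0.80, and without NDRG1-eGFP replicate 1 they were 0.76, 0.45 and 0.62, and none of the 3 genes passed the test in these fits. Without NDRG1-eGFP replicate 2 the calls of H2-K1, at 0.39, and B2m, at 0.86, were lost. Recentred on the median ratio, H2-K1 stood at 0.39 (limma adjusted p = 0.0689) and B2m at 0.71 (limma adjusted p = 0.0503). With the trend of fold change on gene length removed, H2-D1 stood at 0.69 (limma adjusted p = 0.0607), H2-K1 at 0.02 (limma adjusted p = 0.942) and B2m at 0.36 (limma adjusted p = 0.222). The lower H2-D1 in PLP-GFP cells than in PDGFRa-GFP cells lost its call without PLP-GFP replicate 2 (-0.95), PLP-GFP replicate 3 (-1.13) or PDGFRa-GFP replicate 2 (-1.22). In the other direction, B2m became lower in PLP-GFP cells than in PDGFRa-GFP cells without PLP-GFP replicate 1 (-1.05) or PDGFRa-GFP replicate 1 (-1.08), and H2-K1 without PLP-GFP replicate 1 (-0.64) or PDGFRa-GFP replicate 3 (-0.51). Recentring on the median ratio also called both lower there, B2m at -0.89 and H2-K1 at -0.52.

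The promoter windows of the classical class I genes and of the class II chain H2-Aa are shown because these genes were all higher in NDRG1-eGFP cells than in PLP-GFP cells. RefSeq windows of 300 bases (GRCm38.p6, from before to just after the RefSeq start of the gene) were matched for 5 of the 10 genes: H2-K1, H2-D1, B2m, Tap1 and H2-Aa. The H2-D1 window lies wholly downstream of the gene start given above, 35262730, which comes from GENCODE. Capitals mark matches on either strand to the 5 motifs searched.
H2-K1, chr17:34000298-34000597, minus strand, the first of 2 windows listed: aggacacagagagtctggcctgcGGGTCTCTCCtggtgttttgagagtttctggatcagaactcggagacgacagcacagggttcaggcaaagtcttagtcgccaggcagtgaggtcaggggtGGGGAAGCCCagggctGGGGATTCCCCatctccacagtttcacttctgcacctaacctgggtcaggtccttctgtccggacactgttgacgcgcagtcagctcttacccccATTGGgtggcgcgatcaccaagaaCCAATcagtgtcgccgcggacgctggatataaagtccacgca
H2-D1, chr17:35262844-35263143, plus strand: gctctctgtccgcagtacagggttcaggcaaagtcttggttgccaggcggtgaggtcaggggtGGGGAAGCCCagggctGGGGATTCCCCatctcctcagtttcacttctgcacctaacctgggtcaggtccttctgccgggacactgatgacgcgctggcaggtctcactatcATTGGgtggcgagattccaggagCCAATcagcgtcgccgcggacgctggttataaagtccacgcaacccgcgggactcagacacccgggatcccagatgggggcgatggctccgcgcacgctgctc
B2m, chr2:122147437-122147736, plus strand: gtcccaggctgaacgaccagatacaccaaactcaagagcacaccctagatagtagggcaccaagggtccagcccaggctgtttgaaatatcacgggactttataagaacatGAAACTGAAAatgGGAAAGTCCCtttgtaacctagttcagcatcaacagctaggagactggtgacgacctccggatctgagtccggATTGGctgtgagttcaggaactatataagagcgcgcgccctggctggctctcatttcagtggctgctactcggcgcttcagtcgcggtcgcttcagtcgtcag
H2-Aa, chr17:34287774-34288073, minus strand: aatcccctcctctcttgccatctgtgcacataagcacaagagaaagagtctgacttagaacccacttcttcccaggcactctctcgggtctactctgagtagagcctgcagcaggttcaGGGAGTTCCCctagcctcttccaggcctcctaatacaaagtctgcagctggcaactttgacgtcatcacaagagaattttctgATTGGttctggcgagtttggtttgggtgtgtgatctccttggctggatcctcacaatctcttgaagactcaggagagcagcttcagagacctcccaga
The kappa B letters, GGG and any 2 bases, T and any 2 bases, then CC, bound by NF-kappa B proteins, were in 4 of the 5 windows, against 18.4% of all 32851 windows. In H2-K1 and H2-D1 the same site matched on both strands, so that capitals of overlapping matches run together there. The box CCAAT was in all 5 windows, against 37.4% of all windows. The interferon-stimulated response element was searched as GAAA, any 2 bases and GAAA. These letters were in the B2m window alone among the 5, against 3.44% of all windows. The interferon gamma activated site TTCNNNGAA and the X box letters TAGCAAC were in none of the 5, against 8.3% and 3.66% of all windows. These matches describe letters in a window, and no binding was measured. Forms of an element that differ from the letters searched were not looked for. A window without a match may therefore still hold an interferon element or an X box, which was not tested.

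H2-T10 stood apart from the other class I genes. It is a nonclassical class I gene of the T region (chr17:36115876-36121465, minus strand), annotated as a polymorphic pseudogene in GENCODE, and its product and that of its near-identical copy H2-T22 are known as ligands of gamma delta T cells. Its values were 0.95, 1.52 and 0.32 in PDGFRa-GFP libraries, 3.81, 4.11 and 3.82 in PLP-GFP libraries and 9.19, 9.44 and 9.19 in NDRG1-eGFP libraries. The groups did not overlap in any pair, and PDGFRa-GFP replicate 3 was at the lowest value listed for that library. H2-T10 was higher in NDRG1-eGFP cells than in PLP-GFP cells by 5.36 ± 0.67 (limma adjusted p = 0.00021), in NDRG1-eGFP cells than in PDGFRa-GFP cells by 8.34 ± 0.67 (limma adjusted p = 1.29e-05), and in PLP-GFP cells than in PDGFRa-GFP cells by 2.99 ± 0.67 (limma adjusted p = 0.0185). Both fold changes against PDGFRa-GFP cells rest on values near the floor of the scale in that group. With 64 added to the linear values, the difference between PLP-GFP and PDGFRa-GFP cells was 0.26 (limma adjusted p = 0.376), and its call was also lost without PLP-GFP replicate 2 (2.89) or PLP-GFP replicate 3 (3.03).

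H2-T22, the copy next to it, did not follow H2-T10. Its values were 8.08, 8.37 and 9.14 in PDGFRa-GFP libraries, 7.50, 7.28 and 7.20 in PLP-GFP libraries and 7.71, 6.71 and 6.80 in NDRG1-eGFP libraries. PDGFRa-GFP libraries were the highest, with no overlap, and the other groups overlapped each other. H2-T22 was lower in NDRG1-eGFP cells than in PDGFRa-GFP cells, at -1.46 ± 0.36 (limma adjusted p = 0.0197), and lower in PLP-GFP cells than in PDGFRa-GFP cells, at -1.20 ± 0.36 (limma adjusted p = 0.0467). The call in NDRG1-eGFP cells was lost without NDRG1-eGFP replicate 2 (-1.27) or NDRG1-eGFP replicate 3 (-1.32), and the PLP-GFP call was lost in 7 of 9 leave-one-out fits, at log2 fold changes from -1.29 to -0.90, and held without PDGFRa-GFP replicate 1 or NDRG1-eGFP replicate 1.

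The coding sequences of H2-T10 and H2-T22 are 1137 bases each and 96.91% identical over their alignment, with a longest identical run of 134 bases. Of the 50-base windows of H2-T10 exons, 42.9% also occur in another gene and 40.2% occur in H2-T22, and 44.7% of the H2-T22 windows occur in another gene, so reads could be split between the copies in counting and both values are uncertain. A stretch of 60 bases of coding sequence where the copies differ at several bases is shown, with the differing bases in capitals.
H2-T10, exon 5, chr17:36119324-36119383, minus strand, GRCm38: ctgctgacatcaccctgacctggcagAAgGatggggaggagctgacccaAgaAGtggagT
H2-T22, exon 4, chr17:36040613-36040672, minus strand, GRCm38: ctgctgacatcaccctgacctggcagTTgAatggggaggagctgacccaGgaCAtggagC
Summed on the linear scale, the copies reached 8.10, 8.38 and 9.14 (log2) in PDGFRa-GFP libraries, 7.61, 7.43 and 7.34 in PLP-GFP libraries and 9.64, 9.64 and 9.44 in NDRG1-eGFP libraries. The sum kept NDRG1-eGFP libraries highest and PLP-GFP libraries lowest, with no overlap, but with mean levels of 8.54 in PDGFRa-GFP, 7.46 in PLP-GFP and 9.57 in NDRG1-eGFP cells the groups lay far closer than for H2-T10 alone. H2-T10 minus H2-T22 averaged -7.60 in PDGFRa-GFP cells, -3.41 in PLP-GFP cells and 2.20 in NDRG1-eGFP cells.

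**Figure D2:**
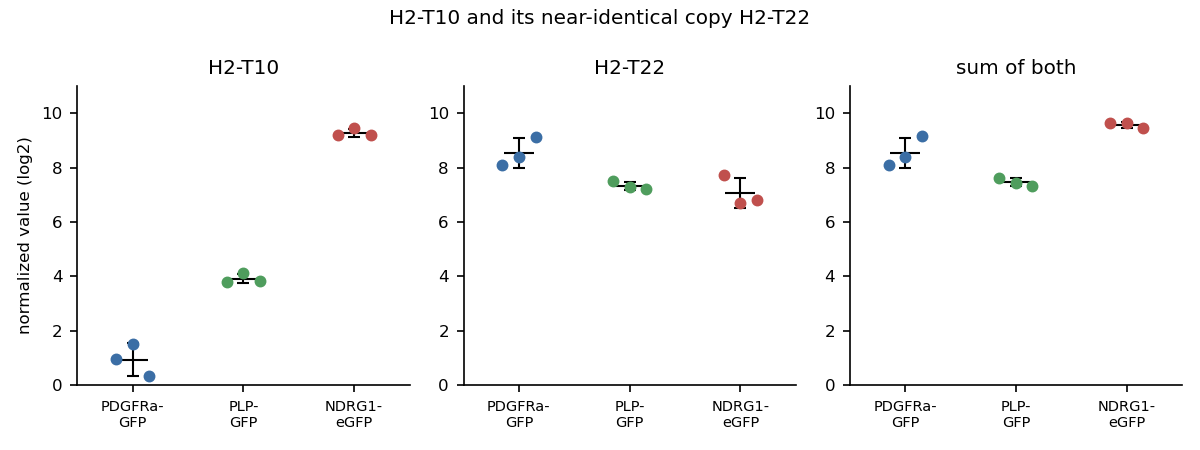
Normalized value (log2) of H2-T10, of its near-identical copy H2-T22 and of their sum on the linear scale in every library, with bars for the group mean ± SD (n = 3). H2-T10 is highest and H2-T22 lowest or near lowest in NDRG1-eGFP cells, and the sum spans a smaller range than H2-T10 alone.

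Of the 7 other class I heavy chain genes measured, 1 was higher in NDRG1-eGFP cells than in PLP-GFP cells, and none was lower. It was Fcgrt, which encodes the neonatal Fc receptor that recycles immunoglobulin G, at 3.08 ± 0.61 (limma adjusted p = 0.00247). Fcgrt was also lower in PLP-GFP cells than in PDGFRa-GFP cells, at -2.76 ± 0.61 (limma adjusted p = 0.0177), a call lost without PLP-GFP replicate 2 (-2.26). H2-Q4 differed between libraries of the same group: its values were 2.05, 1.88 and 4.01 in PDGFRa-GFP libraries, 6.64, 6.45 and 6.54 in PLP-GFP libraries and 6.81, 1.17 and 0.29 in NDRG1-eGFP libraries. NDRG1-eGFP replicate 1 stood with the PLP-GFP libraries and the other 2 stood near the floor, and no comparison of H2-Q4 passed the test. Without NDRG1-eGFP replicate 1, H2-Q4 was lower in NDRG1-eGFP cells than in PLP-GFP cells at -5.82 (limma adjusted p = 0.00488), against -3.79 with all libraries (limma adjusted p = 0.0688), and PLP-GFP against PDGFRa-GFP cells was called at 3.90 (limma adjusted p = 0.0373).

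The TAP transporter genes did not follow the class I chains. Tap1 (chr17:34187553-34197225, plus strand), which encodes one subunit, had values of 6.52, 4.41 and 5.47 in PDGFRa-GFP libraries, 5.71, 5.68 and 5.82 in PLP-GFP libraries and 6.40, 6.46 and 5.05 in NDRG1-eGFP libraries. The groups overlapped in every pair, and the PDGFRa-GFP and NDRG1-eGFP libraries were widely spread. Tap2 (chr17:34203527-34216321, plus strand), which encodes its partner, had values of 7.84, 7.13 and 7.07 in PDGFRa-GFP libraries, 7.25, 7.27 and 7.38 in PLP-GFP libraries and 7.20, 7.30 and 7.29 in NDRG1-eGFP libraries. Apart from PDGFRa-GFP replicate 1 the libraries lay close together. In NDRG1-eGFP against PLP-GFP cells the log2 fold changes were 0.23 ± 0.64 for Tap1 (limma adjusted p = 0.782) and -0.04 ± 0.30 for Tap2 (limma adjusted p = 0.933), so a difference in Tap1 of the size seen for H2-K1 would lie within its error.

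Of the 11 other assembly and loading genes measured, 3 were higher and 3 lower in NDRG1-eGFP cells than in PLP-GFP cells. Tapbpl, which encodes the peptide editor TAPBPR, was higher by 1.26 ± 0.29 (limma adjusted p = 0.00498), whereas the editor tapasin, encoded by Tapbp, gave 0.02 ± 0.15 (limma adjusted p = 0.932). Lnpep, an aminopeptidase that trims peptides in endosomes, was lower at -1.74 ± 0.29 (limma adjusted p = 0.000958), and the chaperone calnexin, Canx, at -0.63 ± 0.16 (limma adjusted p = 0.00758). Canx stood at -0.27 with the length trend removed (limma adjusted p = 0.272). The largest difference was in Sec61g, a subunit of the translocon that moves proteins into the endoplasmic reticulum. Sec61g had values of 10.67, 10.93 and 11.74 in PDGFRa-GFP libraries, between 10.09 and 10.58 in PLP-GFP libraries and 6.42, 6.65 and 6.50 in NDRG1-eGFP libraries, and 20.5% of its windows occur in other genes. It was lower in NDRG1-eGFP cells than in PLP-GFP cells at -3.73 ± 0.27 (limma adjusted p = 6.44e-06), with every NDRG1-eGFP library below every other library. The other higher genes, Sec61a1 and the folding enzyme gene Pdia3, both at 0.30, lost their calls without any 1 of the PLP-GFP or NDRG1-eGFP libraries, which left Tapbpl the one non-member called higher in those fits.

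Of the 5 genes measured for the immunoproteasome and its activators, which cut peptides for class I, 2 were higher and 1 was lower in NDRG1-eGFP cells than in PLP-GFP cells. The catalytic subunit Psmb10 was higher by 1.56 ± 0.28 (limma adjusted p = 0.00132) and the activator subunit Psme1 by 0.82 ± 0.20 (limma adjusted p = 0.00683), with Psme1 at 0.41 once the length trend was removed (limma adjusted p = 0.0893). The catalytic subunit Psmb8 gave 1.45 ± 0.69 (limma adjusted p = 0.108), and was called higher without NDRG1-eGFP replicate 2, at 2.17 (limma adjusted p = 0.0187). Psme2, the partner of Psme1 in the same activator ring, went the other way: it was lower in NDRG1-eGFP cells than in PDGFRa-GFP cells at -1.33 ± 0.21 (limma adjusted p = 0.00187) and lower in NDRG1-eGFP cells than in PLP-GFP cells at -0.56 ± 0.21 (limma adjusted p = 0.0474). The second of these Psme2 calls was lost in 7 of 9 leave-one-out fits, at values from -0.64 to -0.45, and held without PDGFRa-GFP replicate 1 or PDGFRa-GFP replicate 3, and 59.3% of the Psme2 windows occur in other genes.

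Cd74, H2-Ab1 and H2-Aa were higher in NDRG1-eGFP cells than in PLP-GFP cells, and their means were highest in NDRG1-eGFP cells. Cd74 (chr18:60803848-60812652, plus strand) encodes the invariant chain, which fills the groove of new class II molecules and escorts them to endosomes. Its values were 8.50, 8.28 and 8.11 in PDGFRa-GFP libraries, 7.83, 6.95 and 6.39 in PLP-GFP libraries and 10.32, 9.68 and 9.11 in NDRG1-eGFP libraries. The 3 groups did not overlap in any pair, with PLP-GFP lowest and NDRG1-eGFP highest. Cd74 was higher in NDRG1-eGFP cells than in PLP-GFP cells by 2.65 ± 0.39 (limma adjusted p = 0.000529) and higher in NDRG1-eGFP cells than in PDGFRa-GFP cells by 1.41 ± 0.39 (limma adjusted p = 0.0299). The second of these calls was lost without NDRG1-eGFP replicate 1 (1.10), NDRG1-eGFP replicate 2 (1.42), PDGFRa-GFP replicate 1 (1.51) or PDGFRa-GFP replicate 2 (1.40), and with the length trend removed (1.18). PLP-GFP against PDGFRa-GFP cells gave -1.24 ± 0.39 (limma adjusted p = 0.0536), which was called lower without PLP-GFP replicate 1 (-1.63) or PDGFRa-GFP replicate 3 (-1.33).

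H2-Ab1 (chr17:34257689-34269419, plus strand) encodes the beta chain of the class II molecule I-A. Its values were 6.45, 5.56 and 6.92 in PDGFRa-GFP libraries, 7.41, 6.16 and 6.32 in PLP-GFP libraries and 10.57, 8.30 and 8.31 in NDRG1-eGFP libraries. NDRG1-eGFP libraries were the highest, with replicate 1 far above the other 2, and the other groups overlapped. H2-Ab1 was higher in NDRG1-eGFP cells than in PLP-GFP cells by 2.43 ± 0.63 (limma adjusted p = 0.00975) and higher in NDRG1-eGFP cells than in PDGFRa-GFP cells by 2.75 ± 0.63 (limma adjusted p = 0.0139).

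H2-Aa (chr17:34282744-34287823, minus strand) encodes the alpha chain that pairs with it. Its values were 6.95, 6.01 and 7.36 in PDGFRa-GFP libraries, 6.91, 5.56 and 4.97 in PLP-GFP libraries and 9.08, 8.53 and 7.53 in NDRG1-eGFP libraries. NDRG1-eGFP libraries were again the highest with no overlap, though replicate 3 stood close to PDGFRa-GFP replicate 3. H2-Aa was higher in NDRG1-eGFP cells than in PLP-GFP cells by 2.56 ± 0.59 (limma adjusted p = 0.00521). NDRG1-eGFP against PDGFRa-GFP cells gave 1.61 ± 0.59 (limma adjusted p = 0.0763), which was called higher without PDGFRa-GFP replicate 3 (1.90).

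Of the 10 other class II genes measured, 7 were higher in NDRG1-eGFP cells than in PLP-GFP cells and none was lower. H2-Eb1, the beta chain of the class II molecule I-E, was higher by 1.99 ± 0.69 (limma adjusted p = 0.0341), but its call was lost in 5 of 9 leave-one-out fits, at values from 1.36 to 2.21, each without a NDRG1-eGFP library, PLP-GFP replicate 2 or PLP-GFP replicate 3. Rfxap, a subunit of the RFX factor that binds class II promoters, was higher by 0.70 ± 0.16 (limma adjusted p = 0.00535), against 0.30 with the length trend removed (limma adjusted p = 0.23). The endosomal proteases cathepsin L, Ctsl, and legumain, Lgmn, which process antigens and the invariant chain, were higher by 0.88 ± 0.19 (limma adjusted p = 0.00379) and 0.70 ± 0.18 (limma adjusted p = 0.00973), with Lgmn at 0.46 once the length trend was removed (limma adjusted p = 0.0542). Several of these genes serve lysosomes in general. H2-DMa, whose product loads peptides onto class II molecules, gave 0.03 ± 0.70 (limma adjusted p = 0.975). In NDRG1-eGFP against PDGFRa-GFP cells 1 of the 10, Rfxap, was higher. Counted with the members, 3 of the 13 class II genes were higher in that comparison, and 10 of the 13 without PDGFRa-GFP replicate 3. Leaving out that library also raised the calls over all 11315 genes, in either direction, from 2383 to 4621. Against PLP-GFP cells 10 of the 13 were higher, 6 without PLP-GFP replicate 3 and 5 with the length trend removed. Calls over all genes in that comparison, 5460 with every library, also changed with the library left out.

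In NDRG1-eGFP against PLP-GFP cells, myeloid markers moved in the same direction as the class II genes. Of the 19 microglial markers measured, 12 were higher and 1 was lower there, beside 26.1% and 22.2% of all genes. In PLP-GFP against PDGFRa-GFP cells none was higher and 3 were lower, beside 8.46% and 8.53%. In NDRG1-eGFP against PDGFRa-GFP cells 3 were higher and 1 was lower, beside 10.7% and 10.4%. The median level of the 19 markers was 7.87, 8.04 and 7.39 in PDGFRa-GFP libraries, 6.99, 7.12 and 6.67 in PLP-GFP libraries and 8.70, 7.91 and 8.23 in NDRG1-eGFP libraries. Summed on the linear scale the 19 markers stood between 13.22 and 13.60 (log2) in PDGFRa-GFP libraries, between 13.11 and 13.51 in PLP-GFP libraries and between 13.37 and 13.91 in NDRG1-eGFP libraries, a sum led by Sall1, the 1 marker that was lower (-0.94 ± 0.14 in NDRG1-eGFP against PLP-GFP cells, limma adjusted p = 0.000647). Cd74 minus the microglial median was 0.63, 0.24 and 0.72 in PDGFRa-GFP libraries, 0.84, -0.17 and -0.29 in PLP-GFP libraries and 1.62, 1.77 and 0.89 in NDRG1-eGFP libraries. For Cd74 this difference kept NDRG1-eGFP libraries the highest 3, with replicate 3 only just above PLP-GFP replicate 1. The groups overlapped in the same difference for the class II chains. For H2-Aa it was -0.92, -2.03 and -0.02 in PDGFRa-GFP libraries, -0.08, -1.56 and -1.70 in PLP-GFP libraries and 0.38, 0.61 and -0.70 in NDRG1-eGFP libraries. For H2-Ab1 it was -1.42, -2.47 and -0.47 in PDGFRa-GFP libraries, 0.41, -0.96 and -0.36 in PLP-GFP libraries and 1.88, 0.38 and 0.08 in NDRG1-eGFP libraries. NDRG1-eGFP replicate 3 lay below PLP-GFP replicate 1 for both chains, and below PDGFRa-GFP replicate 3 for H2-Aa.

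Of the 17 markers of border macrophages and dendritic cells, 4 were measured, and their sum stood between 7.63 and 7.73 in PDGFRa-GFP libraries, between 7.43 and 8.23 in PLP-GFP libraries and between 10.51 and 11.43 in NDRG1-eGFP libraries. The sum was led by Lyz2, the lysozyme of macrophages and monocytes. Lyz2 had values of 7.33, 6.95 and 7.55 in PDGFRa-GFP libraries, 7.17, 7.26 and 6.73 in PLP-GFP libraries and 11.22, 10.82 and 10.21 in NDRG1-eGFP libraries. Lyz2 was higher in NDRG1-eGFP cells than in PLP-GFP cells by 3.70 ± 0.30 (limma adjusted p = 1.33e-05), a call kept in every fit that left out 1 library. Lyz2 was the only 1 of the 4 called against PLP-GFP cells. There the monocyte chemokine receptor Ccr2, F13a1 and Mrc1 did not pass (limma adjusted p = 0.096, 0.351 and 0.693). Against PDGFRa-GFP cells 3 of the 4, Lyz2, Ccr2 and F13a1, were higher in NDRG1-eGFP cells. Ccr2 was higher there by 4.53 ± 1.13 (limma adjusted p = 0.0195), a call lost without NDRG1-eGFP replicate 1 (4.16). Its values were 6.47, 4.98 and 5.71 in NDRG1-eGFP libraries against 0.35, 1.42 and 1.80 in PDGFRa-GFP libraries. Of the 17 markers of T, NK and B cells, 2 were measured, and 1 of them, the leukocyte actin regulator Coro1a, was higher in NDRG1-eGFP cells than in PLP-GFP cells by 2.17 ± 0.56 (limma adjusted p = 0.00905); their sum stood between 5.88 and 7.56 in PDGFRa-GFP libraries, between 6.08 and 7.21 in PLP-GFP libraries and between 7.72 and 8.63 in NDRG1-eGFP libraries. The lowest value of any gene was between 0.29 and 0.32 in every library, and Ccr2 in PDGFRa-GFP replicate 1 (0.35) stood near that floor. The part of myeloid RNA in the class II differences was not tested.

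**Figure D3:**
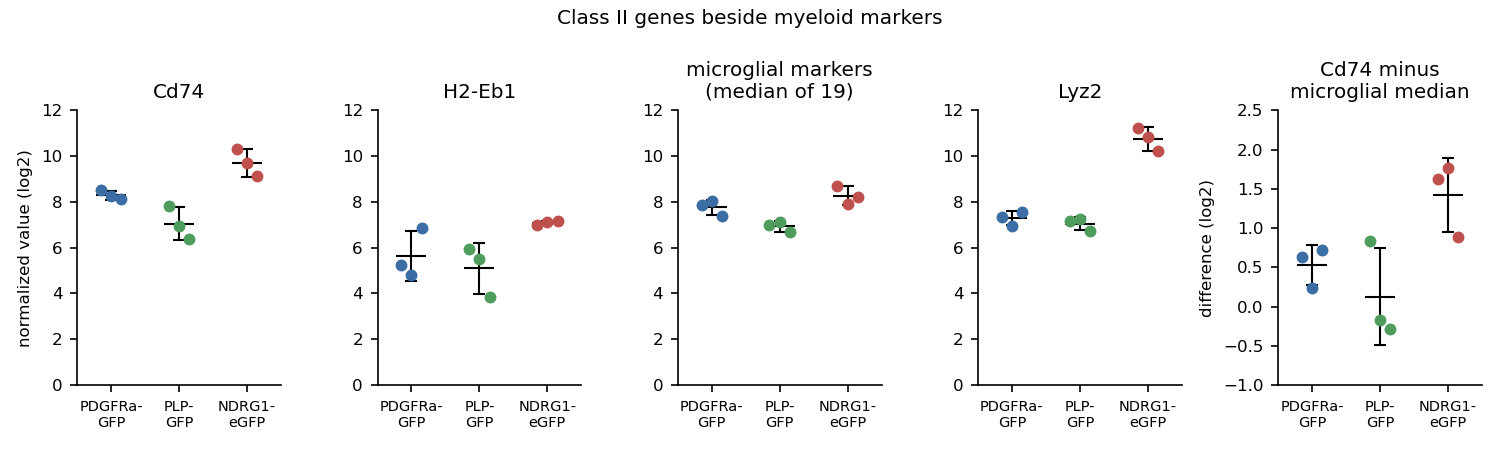
Normalized value (log2) of Cd74 and H2-Eb1, the median of the 19 microglial markers, Lyz2, and Cd74 minus the microglial median in every library, with bars for the group mean ± SD (n = 3). Each panel has its highest mean in NDRG1-eGFP cells.

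C4b was highest in PDGFRa-GFP cells and was called lower in both other groups. It lies within the MHC (chr17:34728380-34743882, minus strand) and encodes complement C4, which tags surfaces for phagocytes and is expressed by astrocytes and oligodendroglia of older brains. Its values were 11.94, 11.45 and 10.90 in PDGFRa-GFP libraries, 8.80, 9.22 and 9.52 in PLP-GFP libraries and 9.47, 9.67 and 10.50 in NDRG1-eGFP libraries. PDGFRa-GFP libraries were the highest with no overlap, and the other groups overlapped by NDRG1-eGFP replicate 1 and PLP-GFP replicate 3. C4b was lower in PLP-GFP cells than in PDGFRa-GFP cells, at -2.25 ± 0.32 (limma adjusted p = 0.0038), and lower in NDRG1-eGFP cells than in PDGFRa-GFP cells, at -1.55 ± 0.32 (limma adjusted p = 0.00891). Both calls held in every fit that left out 1 library. NDRG1-eGFP against PLP-GFP cells gave 0.70 ± 0.32 (limma adjusted p = 0.0989), which was called higher without PDGFRa-GFP replicate 3 (limma adjusted p = 0.0466) and, at 1.28, with the length trend removed (limma adjusted p = 0.00478). Of the C4b windows 35.2% also occur in C4a, which is not among the measured genes, so reads of both may be counted here.

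Markers of fibroblast-like and meningeal cells, a list that includes Pdgfra, moved with C4b in PLP-GFP against PDGFRa-GFP cells. Their sum stood between 7.60 and 9.25 in PLP-GFP libraries and between 12.80 and 13.89 in PDGFRa-GFP libraries, and 10 of the 11 measured were lower in PLP-GFP cells. In NDRG1-eGFP libraries the sum stood between 11.55 and 13.44, and none of the 11 was called against PDGFRa-GFP cells, where C4b was lower. The 13 astrocyte markers summed to between 14.18 and 15.07 in PDGFRa-GFP libraries, between 14.02 and 14.32 in PLP-GFP libraries and between 14.85 and 15.52 in NDRG1-eGFP libraries. That sum was led by S100b, with means of 13.48, 12.41 and 14.59, and Slc1a3, at 12.42, 12.80 and 12.52. The median log2 fold change of the 13 was 0.11 in NDRG1-eGFP against PLP-GFP cells. It was -0.34 in PLP-GFP and -0.12 in NDRG1-eGFP cells against PDGFRa-GFP cells. The part of fibroblast-like cells, meningeal cells or astrocytes in the C4b differences was not tested.

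Other complement genes had another order from C4b. Of the 14 measured, 9 were higher and none lower in NDRG1-eGFP cells than in PLP-GFP cells, 4 were lower and none higher in PLP-GFP cells than in PDGFRa-GFP cells, and none was called in NDRG1-eGFP against PDGFRa-GFP cells. Serping1, the C1 inhibitor, which restrains the first step of the classical pathway, had values of 8.40, 7.38 and 6.83 in PDGFRa-GFP libraries, 4.23, 4.69 and 4.57 in PLP-GFP libraries and 8.15, 9.07 and 7.06 in NDRG1-eGFP libraries. PLP-GFP libraries were the lowest with no overlap. Serping1 was higher in NDRG1-eGFP cells than in PLP-GFP cells by 3.60 ± 0.56 (limma adjusted p = 0.000673) and lower in PLP-GFP cells than in PDGFRa-GFP cells at -3.04 ± 0.56 (limma adjusted p = 0.00975).

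The C1q chains, which start the classical pathway and are microglial markers in brain, were also higher in NDRG1-eGFP cells than in PLP-GFP cells: C1qb by 2.17 ± 0.44 (limma adjusted p = 0.00292) and C1qc by 2.21 ± 0.40 (limma adjusted p = 0.00148). Cd59a, which blocks the membrane attack complex, was higher by 1.84 ± 0.34 (limma adjusted p = 0.00172). Both initiators and inhibitors of the cascade were thus among the genes higher in NDRG1-eGFP cells. Of the complement genes with C4b, 5 of 15 were lower in PLP-GFP cells than in PDGFRa-GFP cells, beside 8.53% of all genes. Between 2 and 6 were lower when 1 library was left out. There were 2 without any 1 of the 3 PLP-GFP libraries or without PDGFRa-GFP replicate 2, and 6 without PDGFRa-GFP replicate 3. Calls over all genes in this comparison, 1922 with every library, also changed with the library left out and were fewest without PLP-GFP replicate 2. The changes are therefore not particular to complement genes.

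Genes of interferon signalling, a pathway known to induce both presentation classes, did not move as a block. Of the 14 measured, 4 were higher and 2 lower in NDRG1-eGFP cells than in PLP-GFP cells, with 2 higher without PLP-GFP replicate 2 or PLP-GFP replicate 3, and 1 higher without NDRG1-eGFP replicate 1. The type I receptor subunits went opposite ways: Ifnar2 was higher by 1.15 ± 0.12 (limma adjusted p = 9.38e-05) and Ifnar1 lower at -0.63 ± 0.15 (limma adjusted p = 0.00653). Ifnar2 was also higher in NDRG1-eGFP cells than in PDGFRa-GFP cells by 0.67 ± 0.12 (limma adjusted p = 0.00507). Ifngr2, a subunit of the interferon gamma receptor, was higher than in PLP-GFP cells by 0.74 ± 0.21 (limma adjusted p = 0.0157), a call lost without NDRG1-eGFP replicate 1 (0.64), NDRG1-eGFP replicate 2 (0.70) or PLP-GFP replicate 2 (0.73). Irf8 and Socs3 were also higher than in PLP-GFP cells, by 1.71 ± 0.50 (limma adjusted p = 0.0175) and 2.86 ± 0.91 (limma adjusted p = 0.025). Both calls were lost without NDRG1-eGFP replicate 1 or PLP-GFP replicate 3. The interferon-induced factor Irf1 gave 1.42 ± 0.72 (limma adjusted p = 0.128), and was called higher without NDRG1-eGFP replicate 2, at 2.27 (limma adjusted p = 0.0154).

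**Figure D4:**
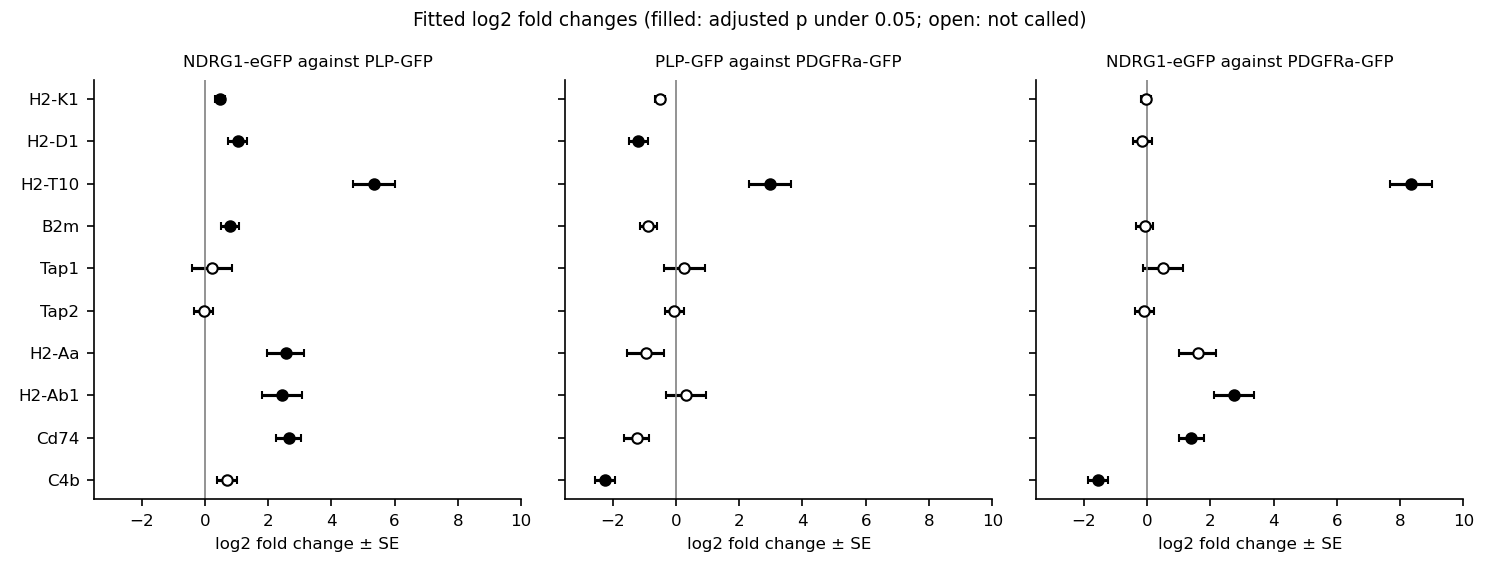
Log2 fold change ± SE of the 10 genes in each of the 3 comparisons, with filled points for an adjusted p under 0.05 (limma) and open points for genes that did not pass. H2-T10 lies to the right in all comparisons, the class II chains and Cd74 lie to the right in NDRG1-eGFP against PLP-GFP cells, and C4b lies to the left in both comparisons with PDGFRa-GFP cells.

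Over the 9 libraries, the gene whose values were most like those of H2-T10 was Slc25a26 (Pearson r = 0.98), followed by Zdhhc24 (0.98) and Hiat1 (0.98). For Cd74 they were Acat1 (0.99), Sptssa (0.98) and Pak3 (0.97), and for C4b Egr3 (0.95), Atxn2l (0.93) and Wnk1 (0.93). For H2-Ab1 they were Fam132a (0.98), Mal (0.98) and Pbxip1 (0.97). None of these was among the presentation genes. The correlations are descriptions over 9 libraries that share group, library and normalization, among 11315 genes searched.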

How the data were processed

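RNA was sequenced from 9 libraries, 3 for each of 3 sorted populations. The deposited values are log2 normalized values for 11315 genes, made by the authors; the library medians are all 10.57. BWA, DESeq2 1.2.5 and mm10 are named in the submitters' processing notes, with no role given. Counts and depth are not in the values, so the depth is unknown and no counting interval is given.

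limma 3.58.1 (R 4.3.3) was fitted to all 9 libraries with a group term, an intensity trend and Benjamini-Hochberg adjustment over all genes, with calls at an adjusted p under 0.05. A filter (at least 1 in at least 3 libraries) removed 0 genes. No single-gene exact permutation test of 3 against 3 libraries can go below p = 0.1. No block was used, since the labels do not say that replicate numbers mark a shared animal or day. Same-numbered libraries did not deviate together over all genes.

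GENCODE M21 (GRCm38) gave positions and 50-base windows shared between genes for 11274 genes; RefSeq gave promoters. The 10 members, 6 pathway lists and 10 marker lists were chosen with earlier results of these data known. Named pathway genes are up to 4 per list with the smallest adjusted p in any comparison, with the marker genes highest on average. Partners of members and of those genes, and Socs3, were added after their values were seen (H2-DMa, H2-Eb1, Tapbp, Sec61a1, Pdia3, Irf1 and Socs3). The fit was tested on simulated data.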

Additional observations from a re-analysis of the deposited data

How the results depend on the processing

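Of the 10 genes, H2-T10, H2-Aa, H2-Ab1 and Cd74 stayed called higher in NDRG1-eGFP cells than in PLP-GFP cells under every alternative that kept them. The comparisons below run in the order NDRG1-eGFP against PLP-GFP cells, then PLP-GFP and last NDRG1-eGFP cells against PDGFRa-GFP cells, with 7, 3 and 4 of the 10 genes called (5460, 1922 and 2383 of all genes). An adjusted p under 0.01 gave 4, 1 and 2 (3526, 292 and 899). A minimum mean of 8, which drops H2-T10, H2-Aa, H2-Ab1, Tap1 and Tap2, gave 4 and 2 in the comparisons of NDRG1-eGFP cells with PLP-GFP and PDGFRa-GFP cells. Recentring on the median ratio, with shifts between -0.05 and 0.10, gave 5, 5 and 4: H2-K1 and B2m lost their calls in the first comparison and gained them in the second. Removing the length trend left 1243 genes in the second comparison and gave 5, 3 and 3 of the 10. Fitting only the 2 groups compared gave 1066 genes in PLP-GFP and 1042 in NDRG1-eGFP against PDGFRa-GFP cells. Counts of all genes are not given here for the minimum mean or recentring, nor for the other comparisons with the length trend removed. Changes in the counts of the 10 genes under these settings are therefore not read as particular to them.

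Leaving out 1 library at a time gave 4 to 8, 1 to 6 and 3 to 5 of the 10 genes in that order, and 3961 to 6908, 278 to 2789 and 1316 to 4621 of all genes. The fewest in the second comparison came without PLP-GFP replicate 2, and the most in the last one without PDGFRa-GFP replicate 3. Signs turned only for values that passed no test. Tap2 in the second comparison was 0.22 with the length trend removed. The other turns came from leaving out 1 library, with ranges in the first comparison of -0.011 to 0.70 for Tap1 and -0.06 to 0.0026 for Tap2. In the second they were -0.26 to 0.79 for Tap1, -0.19 to 0.20 for Tap2 and -0.074 to 0.62 for H2-Ab1. In the last they were -0.027 to 1.03 for Tap1, -0.22 to 0.16 for Tap2, -0.43 to 0.0067 for H2-D1, -0.11 to 0.074 for H2-K1 and -0.28 to 0.22 for B2m.

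Over all genes, same-numbered libraries did not deviate together: their deviations correlated between -0.23 and 0.09. With a replicate block 4680, 722 and 1321 genes were called in the same order of comparisons, and 6, 3 and 4 of the 10; H2-K1 in NDRG1-eGFP against PLP-GFP cells then had an adjusted p of 0.0632 (limma). H2-T10 in PLP-GFP against PDGFRa-GFP cells then had an adjusted p of 0.0518 (limma), and Cd74 was called lower there at -1.24 (limma adjusted p = 0.0385). Where a call changed, the cause was not tested. The depth is unknown, and levels are not compared between genes.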

Other observations

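Of the 69 measured genes lying between H2-K1 and H2-T10 (chr17:33996017-36121465, GRCm38), 8 were members and 61 were other genes of the MHC. In NDRG1-eGFP against PLP-GFP cells 26 of these 61 were higher and 7 lower, which is 54.1% called against 48.3% of all genes, with a median log2 fold change of 0.36. In PLP-GFP against PDGFRa-GFP cells 2 were higher and 9 lower (18% called against 17.0%), with a median of -0.20. In NDRG1-eGFP against PDGFRa-GFP cells 14 were higher and 5 lower (31.1% called against 21.1%), with a median of 0.15.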
